A study of Mus musculus with 2 samples.

Results

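Voltage-gated calcium channels were described here through 10 named subunit genes: the pore-forming genes Cacna1a, Cacna1c, Cacna1d, Cacna1g, Cacna1h and Cacna1s, the beta subunit genes Cacnb1, Cacnb2 and Cacnb3, and the alpha2delta gene Cacna2d1. Their probe sets were taken from the array where the platform annotation gave exactly 1 mouse gene and that gene was on the list, which selected 23 of 45037 probe sets and covered 9 of the 10 genes. No probe set of the annotation used here named Cacnb3, so it has no value. The members were chosen by their ratios between these very arrays, so those ratios are a description. Primary mouse embryonic fibroblasts (MEFs) of C57BL/6 embryos at embryonic day 13.5, grown from whole embryo tissue and kept to passage 2 (young MEFs), were transfected with GapmeR Control, a non-targeting antisense oligonucleotide, or with GapmeR AK156230, whose target for RNase H is the long noncoding RNA AK156230. Each condition had 1 array and AK156230 was targeted by 1 GapmeR, so no value has a replicate, no test can be made, and effects of that oligonucleotide and of losing its target cannot be told apart. Cultures made from whole embryos may hold several cell types, and in such bulk RNA fewer cells of a type and less RNA per cell cannot be told apart.

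The pore-forming alpha1 subunit of these channels senses the membrane voltage and lets calcium into the cell when the membrane is depolarized. L-type channels (Cacna1c, Cacna1d and Cacna1s) couple depolarization to contraction, secretion and gene expression, the P/Q-type channel (Cacna1a) triggers transmitter release at synapses, and T-type channels (Cacna1g and Cacna1h) open at weak depolarization. The cytoplasmic beta subunits and the extracellular alpha2delta subunits bring L-type and P/Q-type channels to the cell surface and adjust their gating. Fibroblasts are not excitable cells, and these genes are best known from muscle, neurons and endocrine cells.

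After transfection with GapmeR AK156230, the signals of Cacna1c and Cacna2d1 were lower by 2-fold or more, and no member was higher by 2-fold. Cacna1c was 12.2-fold lower at its brightest probe set and 2.91-fold lower at the other. The size of the former is uncertain because its signal with GapmeR AK156230 lay under the 25th percentile of that array: its log2 ratio of -3.61 became -2.47 with that signal raised to the percentile, -2.14 with an offset of 24.3, the 25th percentile of both arrays together, on all signals, and -2.58 as the mean of both probe sets. Cacna2d1 was 2.70-fold lower at its brightest probe set and lower by less at the next probe sets. Cacna1h, Cacna1g and Cacnb2 were 1.91-fold, 1.64-fold and 1.52-fold lower, and the remaining 4 members differed by less than 1.5-fold. Lower by 2-fold were thus 2 of 9 members, while 3.85% of the 18193 named genes were lower and 1.59% were higher. After both arrays were scaled to the same median, 3.20% of the named genes were lower and 2.13% were higher, which lowers the share of changed genes that were lower from 70.8% to 60.0%. At 1.5-fold 5 members were lower, with 9.69% of the named genes, and at 3-fold 1 member was, with 1.45%. Since these ratios chose the members, nothing is read from their counts.

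The proximal promoters of the called members are shown with that of Cacnb1, a bright member within 2-fold, so that both kinds can be compared at sequence level. Promoter windows run from 250 bases before to 50 bases after a start site of RefSeq (GRCm38.p6), and 7 members had 13 such windows. Cacnb3, which has no value here, had 2 of them, and Cacna1a, Cacna1g and Cacna1h had none. The Cacna1c window is the GC-rich one of its 3 (chr6:119108446-119108745, minus strand), the Cacna2d1 window is its only one (chr5:15934441-15934740, plus strand) and the Cacnb1 window is the first of 2 (chr11:98022578-98022877, minus strand). Capitals mark the GC box GGGCGG, which Sp1-family factors bind, on either strand.
Cacna1c: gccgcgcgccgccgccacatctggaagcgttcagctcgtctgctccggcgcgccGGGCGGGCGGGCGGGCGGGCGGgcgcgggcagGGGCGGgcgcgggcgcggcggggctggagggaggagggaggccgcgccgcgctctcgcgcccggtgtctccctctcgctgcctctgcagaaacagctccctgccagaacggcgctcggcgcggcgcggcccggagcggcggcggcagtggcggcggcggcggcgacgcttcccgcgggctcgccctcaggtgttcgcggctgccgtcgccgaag
Cacna2d1: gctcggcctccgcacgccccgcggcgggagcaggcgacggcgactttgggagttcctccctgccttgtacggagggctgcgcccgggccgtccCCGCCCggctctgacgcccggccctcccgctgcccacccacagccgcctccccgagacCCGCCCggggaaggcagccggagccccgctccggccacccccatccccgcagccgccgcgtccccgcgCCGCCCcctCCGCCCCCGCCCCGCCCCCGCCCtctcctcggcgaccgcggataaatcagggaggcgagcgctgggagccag
Cacnb1: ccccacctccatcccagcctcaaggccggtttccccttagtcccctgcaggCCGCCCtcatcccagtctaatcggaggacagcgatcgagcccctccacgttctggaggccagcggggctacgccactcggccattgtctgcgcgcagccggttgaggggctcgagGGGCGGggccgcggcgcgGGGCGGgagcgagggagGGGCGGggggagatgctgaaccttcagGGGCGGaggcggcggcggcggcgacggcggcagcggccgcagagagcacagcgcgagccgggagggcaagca

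The Cacna1c window held 6 matches to GGGCGG, the Cacna2d1 window 7 and the Cacnb1 window 5, overlapping matches counted separately. The other 2 Cacna1c windows held none, and 8 of the 13 windows held at least 1, both Cacnb3 windows among them. Over all 32851 promoter windows of the same length 35.7% held one. GC content was 81.3% in the Cacna1c window, 80.0% in that of Cacna2d1 and 73.7% in that of Cacnb1, against a median of 52.7% over all windows. The letters TATAAA were found in 1 of the 13 windows, the first of Cacna1d, and in 13.6% of all windows. The letters TGACGTCA and CACGTG were found in none of the 13, and in 1.79% and 7.15% of all windows, both strands searched. The Cacna1c window was printed because it is GC-rich, and the second Cacnb1 window, not printed, also held none, so the GC boxes shared by the printed windows follow in part from which windows were chosen.

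Over all probe sets the MAS5 signals had medians of 54.80 (GapmeR Control) and 50.95 (GapmeR AK156230), a shift of -0.11 on the log2 scale, and 25th percentiles of 25.03 and 23.56. Relative to that shift the log2 ratio at the brightest probe set was -3.51 for Cacna1c and -1.33 for Cacna2d1. A probe set is called bright here where the higher of its signals reached the median of the array it was read on, and dim otherwise. Of the 23 calcium channel probe sets 10 were bright, from 5 genes, and 3 of these were lower by 2-fold or more. That is set beside 4.67% of all 20660 bright probe sets with 1 gene symbol. Of the 3 lower ones, both Cacna1c probe sets were bright through the GapmeR Control array alone. These ratios also chose the members, so nothing is read from the counts among bright or dim probe sets. None of the 13 dim ones was past 2-fold, with log2 ratios, always given as GapmeR AK156230 relative to GapmeR Control, from -0.93 to 0.084. Over all 23 the median log2 ratio was -0.19, against -0.064 over the 34945 probe sets with 1 gene symbol. At the gene level, each gene represented by its brightest probe set, the median was -0.60 over the 9 members and -0.074 over all named genes. All 9 members lay below 0, as did 58.8% of the named genes, and after scaling to the same median Cacna1d and Cacna1s lay above 0, at 0.030 and 0.096.

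**Figure D1:**
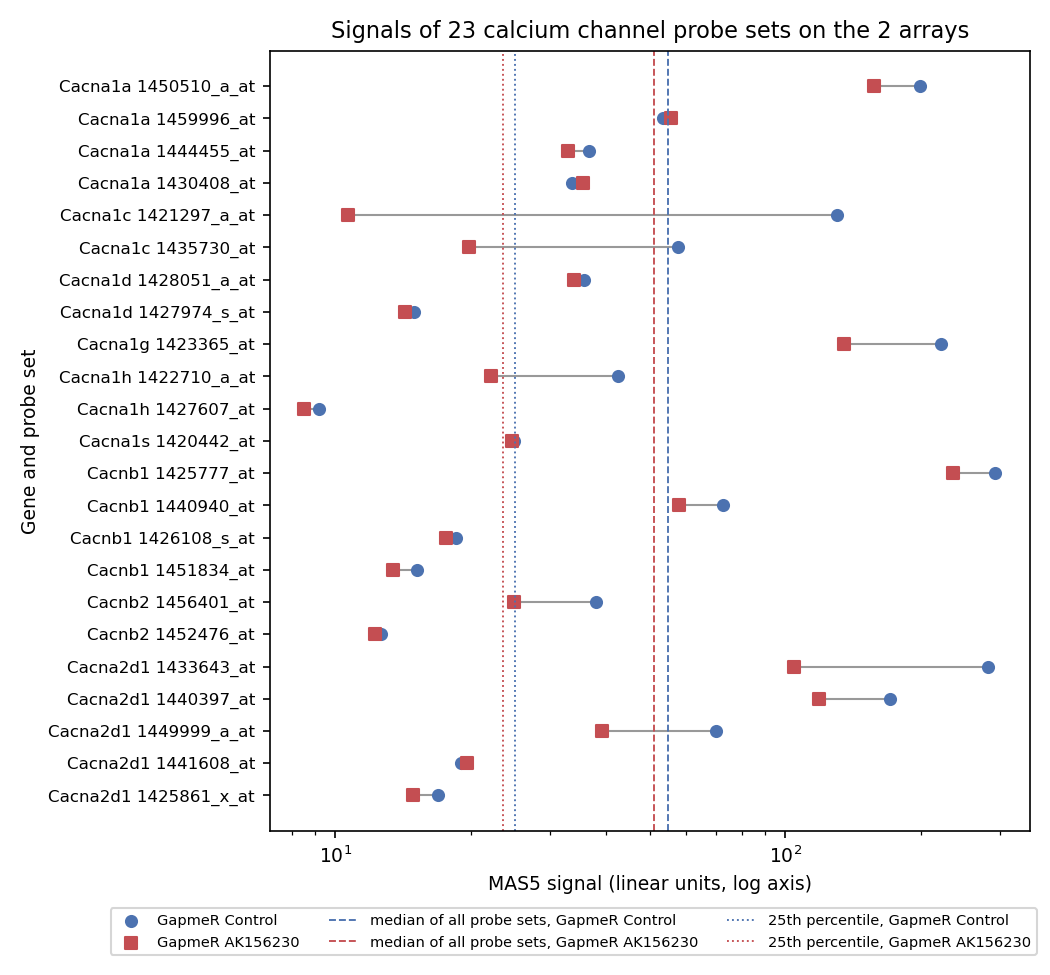
MAS5 signal on a log axis for each of the 23 calcium channel probe sets, with a circle for GapmeR Control, a square for GapmeR AK156230 and a line joining them; dashed lines mark the median of each array and dotted lines its 25th percentile. Cacna1c spans 130.31 to 10.67 and ends under the 25th percentile, and 7 probe sets lie under the 25th percentile on both arrays.

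Among the L-type pore genes, Cacna1c encodes the channel of heart, smooth muscle and neurons. It spans 610.1 kb on chromosome 6 (chr6:118587240-119197384, GRCm38). Its brightest probe set, 1421297_a_at, had a signal of 130.31 with GapmeR Control and of 10.67 with GapmeR AK156230, a log2 ratio of -3.61. The first signal lay at the 70.4th percentile of its array and the second at the 6.41st, among the dimmest probe sets. The other probe set, 1435730_at, had signals of 57.84 and 19.85, a log2 ratio of -1.54. Both were thus above the median with GapmeR Control and under the 25th percentile with GapmeR AK156230. Their log2 ratios differed by 2.07. Between the 2 brightest probe sets of 5112 genes, both bright, the SD per probe set was 0.276, so the probe sets of Cacna1c shared the direction and differed in size by more than this spread.

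Cacna1d encodes a second L-type pore, known from sinoatrial and endocrine cells. Its probe set 1428051_a_at had signals of 35.66 and 33.84, and 1427974_s_at had 14.94 and 14.31. Both were dim on both arrays and their log2 ratios were -0.076 and -0.062. Cacna1s, the voltage sensor of skeletal muscle, had signals of 24.90 and 24.74 at its only probe set. At these signals neither gene can be said to be expressed or absent, since no detection calls came with the values.

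Cacna1a, the P/Q-type pore, was bright at 1450510_a_at, with signals of 198.71 and 157.61, a log2 ratio of -0.33. Its other 3 probe sets had signals from 33.54 to 53.59 with GapmeR Control and log2 ratios of 0.060, -0.16 and 0.084. Of these 2 lay above 0, against the direction of the first.

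The T-type genes were both lower by less than 2-fold. At the only probe set of Cacna1g the GapmeR Control array read 221.83 and the GapmeR AK156230 array 134.98, a log2 ratio of -0.72, and it was bright on both arrays. Cacna1h had signals of 42.45 and 22.23 at 1422710_a_at, a log2 ratio of -0.93, just inside 2-fold. Next in order was Cacna2d1, at -1.43 or 2.70-fold lower. Both Cacna1h signals were under the median of their array. The second Cacna1h probe set, 1427607_at, had 9.19 and 8.53, among the dimmest on either array.

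Of the beta subunits, Cacnb1 partners the skeletal muscle channel. Its signals were 292.60 and 235.69 at 1425777_at and 72.69 and 58.13 at 1440940_at. These bright probe sets gave log2 ratios of -0.31 and -0.32, which differ by less than the spread of 0.276. The other 2 were dim, at -0.071 and -0.18, so all 4 were lower and none by more than 1.5-fold. Cacnb2, the main partner of the heart channel, had signals of 38.02 and 25.01 at 1456401_at, a log2 ratio of -0.60, and of 12.65 and 12.26 at 1452476_at. Both of its probe sets were dim.

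Cacna2d1, the alpha2delta subunit to which gabapentin binds, spans 440.2 kb on chromosome 5 (chr5:15934264-16374511). Its probe set 1433643_at read 281.93 on the GapmeR Control array and 104.43 on the GapmeR AK156230 array, a log2 ratio of -1.43. The bright probe sets 1440397_at and 1449999_a_at had 170.50 and 119.03, and 70.22 and 39.23, with log2 ratios of -0.52 and -0.84. All 3 were thus lower, with a mean of -0.93, and only the brightest was past 2-fold. The remaining probe sets were dim and had log2 ratios of 0.044 and -0.19, and with these included the mean over all 5 was -0.59. Of 261 genes that were lower by 2-fold at the brightest of 2 or more bright probe sets, 59.8% were lower by 2-fold at the next one too. Cacna1c is among those whose next probe set also passed and Cacna2d1 among those whose next did not.

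**Figure D2:**
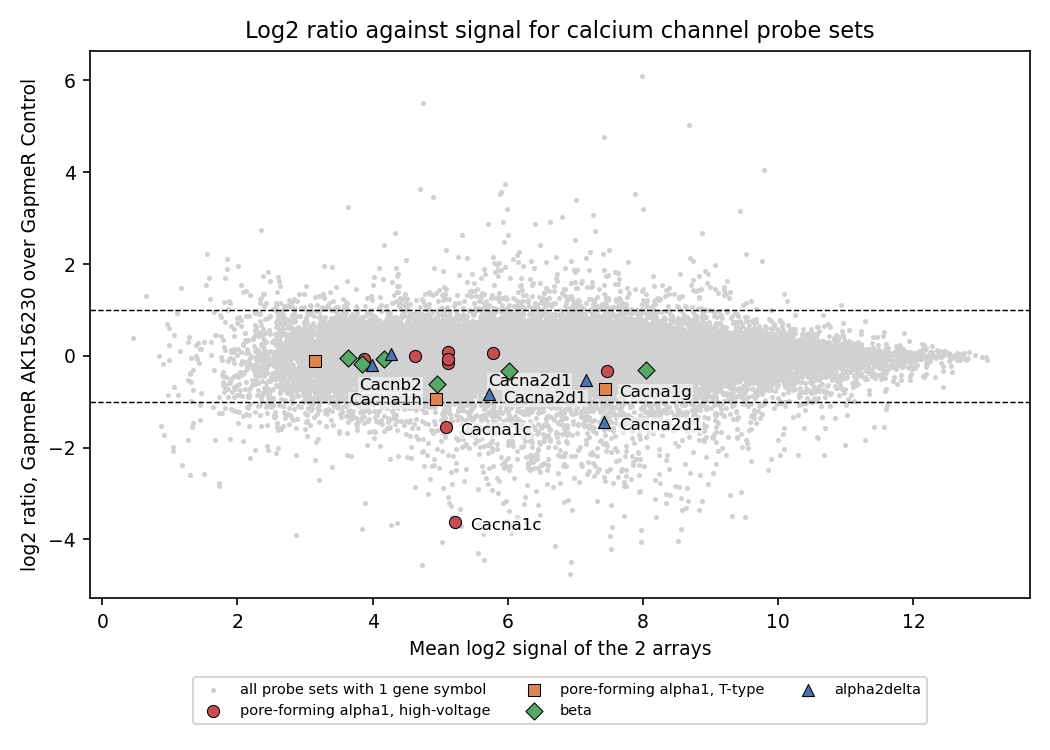
log2 ratio between the arrays, negative where GapmeR AK156230 was lower, against the mean log2 signal of the 2 arrays, with calcium channel probe sets coloured by subunit type over all probe sets with 1 gene symbol in grey and dashed lines at 2-fold. Cacna1c at -3.61 and -1.54 and Cacna2d1 at -1.43 lie past 2-fold, and no dim member does.

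Genomic length differed among the members and moved with the ratio across the array. Among named genes with a bright representative and a known length, 2.28% of 5707 genes up to 20 kb long were lower by 2-fold or more. The share was 21.9% for 524 genes between 160 and 320 kb, and 34.3% for 201 genes between 320 and 640 kb. Both lower members belong to that last class. The 5 members over 160 kb (301.6 to 610.1 kb) had log2 ratios from -3.61 to -0.076, with a median of -0.60. The 4 members of 21.5 to 67.0 kb had log2 ratios from -0.93 to -0.0093, with a median of -0.51. Cacna1d (451.2 kb) and Cacnb2 (385.0 kb) are about as long as Cacna2d1 but were dim, and Cacna1a (301.6 kb) was bright with a log2 ratio of -0.33. The part of gene length in these ratios was not tested.

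**Figure D3:**
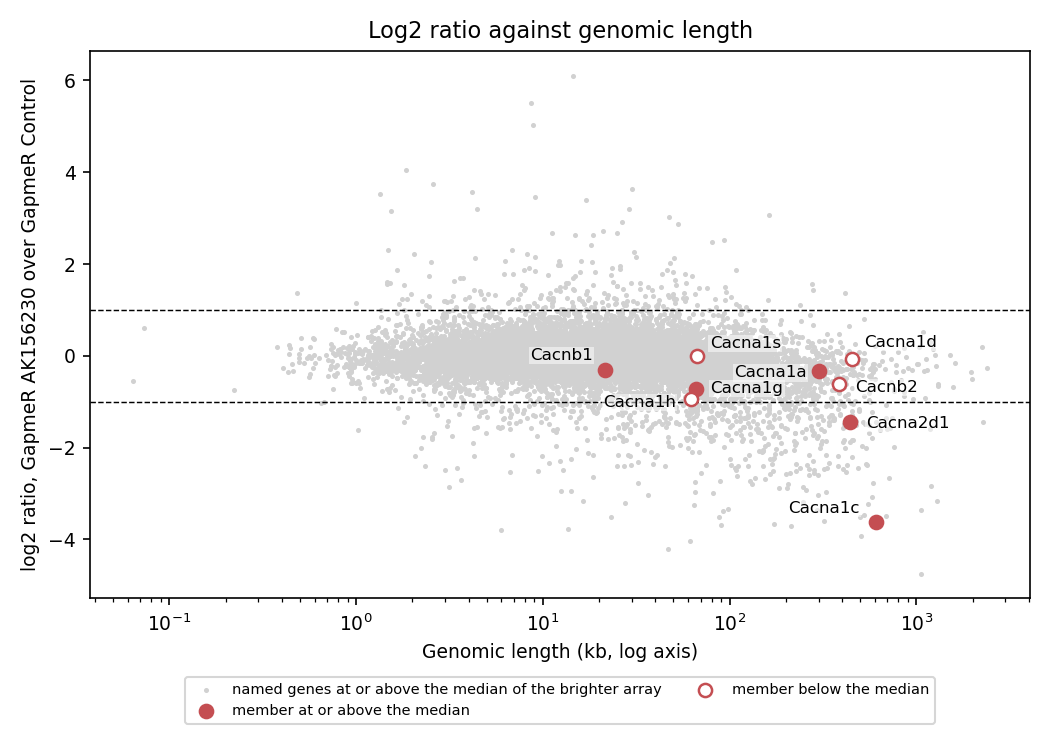
log2 ratio between the arrays, negative where GapmeR AK156230 was lower, against genomic length on a log axis, with the 9 measured members as filled (bright) or open (dim) circles over bright named genes in grey and dashed lines at 2-fold. Cacna1c (610.1 kb) and Cacna2d1 (440.2 kb) lie past 2-fold, and the 4 shorter members lie between -0.93 and -0.0093.

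The genes beside the lower members were within 2-fold, while 3.85% of all named genes were lower by 2-fold and 1.59% higher. With so few neighbours nothing is read from this. Within 1 Mb of Cacna1c 24 named genes were measured, with log2 ratios from -0.76 (Wnk1) to 0.53 (Rad52) and a median of -0.11. One of them, Cacna2d4, is itself an alpha2delta gene, 39.1 kb from Cacna1c in this annotation, and it was dim on both arrays with signals of 13.64 and 15.00. Within 1 Mb of Cacna2d1 4 named genes were measured, all dim, with log2 ratios from -0.62 to 0.29. These neighbours were looked up after the values of the members were known. The 3 named genes whose pair of log2 signals lay nearest to that of Cacna1c, by distance over the 2 arrays, were Abi3bp (143.83 and 10.99, distance 0.15), Car8 (125.21 and 12.32, distance 0.22) and Col8a2 (106.21 and 11.45, distance 0.31). With 2 arrays such likeness says only that the signals were similar.

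Other calcium channel subunit genes were within 2-fold of their level with GapmeR Control. Of 16 further genes 15 were measured, 8 of them bright, and none was past 2-fold in either direction. Over all named genes 3.85% were lower by 2-fold and 1.59% higher. The members were chosen by their ratios on these arrays, so nothing is read from the count among genes left out of them. These 15 genes had a median log2 ratio of -0.057, with a range from -0.64 to 0.14. The lowest was Cacng7, a gamma subunit that also acts as an auxiliary subunit of AMPA receptors, with signals of 233.02 and 149.89. Cacng3, of the same kind, had signals of 501.36 and 459.66. Of their 32 probe sets 10 were bright, and the log2 ratios of all 32 ran from -0.81 to 0.45. The pore genes Cacna1e, Cacna1f and Cacna1b had log2 ratios of -0.31, 0.14 and -0.036, and Cacnb4 had signals of 17.57 and 17.51. Among 16 measured genes that bind or regulate the channels, Cachd1, an alpha2delta-like protein gene, was 3.76-fold lower (451.07 and 119.98) and the others were within 2-fold. Averaged over its probe sets the log2 ratio of Cachd1 was -1.28, against -1.91 at the brightest.

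Lists of genes that carry calcium by other routes or read it each held 1 or 2 genes lower by 2-fold. Over all named genes 3.85% were lower, and with lists this small nothing is read from the counts. Of 19 measured genes of calcium release and entry, Mcu, the pore of the mitochondrial calcium uniporter, was 5.71-fold lower (351.69 and 61.58), a log2 ratio of -2.51 that became -1.33 when its probe sets were averaged. None was higher by 2-fold as deposited, and 1 was after scaling to the same median or averaging, Orai2 (51.59 and 96.08), a calcium entry channel gene named after its values were seen. Of 13 genes of calcium removal, Slc24a3, a sodium/potassium/calcium exchanger, was 2.67-fold lower (79.72 and 29.85). An offset of 24.3 on all signals brought its log2 ratio to -0.94. Of 21 genes that read calcium signals, the calcineurin subunit gene Ppp3ca (768.97 and 369.46) and the calcineurin regulator gene Rcan2 (213.36 and 94.79) were 2.08-fold and 2.25-fold lower. Averaged over their probe sets both were within 2-fold, at -0.86 and -0.68. The lists had medians of -0.19, -0.18 and -0.32. The named lower genes span 170.4 kb (Mcu), 474.4 kb (Slc24a3), 268.0 kb (Ppp3ca), 238.2 kb (Rcan2) and 227.1 kb (Cachd1). Other long, bright genes of these lists were within 2-fold. Camk1d (421.4 kb), Itpr2 (394.0 kb) and Camk4 (260.8 kb) had log2 ratios of -0.61, -0.10 and -0.21. These were named after their values were seen. Of bright named genes between 160 and 320 kb 21.9% were lower by 2-fold, and of those between 320 and 640 kb 34.3%. The part of gene length in these values was not tested.

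Other voltage-gated channels are set beside the calcium channel members as a description. Of 11 measured sodium channel genes none was lower by 2-fold, and the beta subunit genes Scn3b (26.64 and 66.61) and Scn4b (11.09 and 34.04) were 2.50-fold and 3.07-fold higher. Scn4b was dim on both arrays, and the same offset brought Scn3b to 0.84. Of 20 potassium channel genes Kcnh2, the channel that repolarizes the heart, was 2.11-fold lower (50.91 and 24.11), and it was also dim and within 2-fold after scaling. The bright Kcnab1 (259.95 and 133.66) was just within 2-fold, at -0.96. With the probe sets of each gene averaged, 1 sodium channel gene was higher and 2 potassium channel genes were lower by 2-fold. Over all named genes 3.85% were lower and 1.59% higher, and with lists this small nothing is read from the counts. Scn4b, Kcnh2 and Kcnab1 are named after their values were seen. The medians were 0.045 for the sodium channels and -0.28 for the potassium channels. They are given beside -0.60 for the calcium channel members, which these ratios chose, and -0.057 for the other calcium channel subunits. No contrast between channel families is read from these medians.

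**Figure D4:**
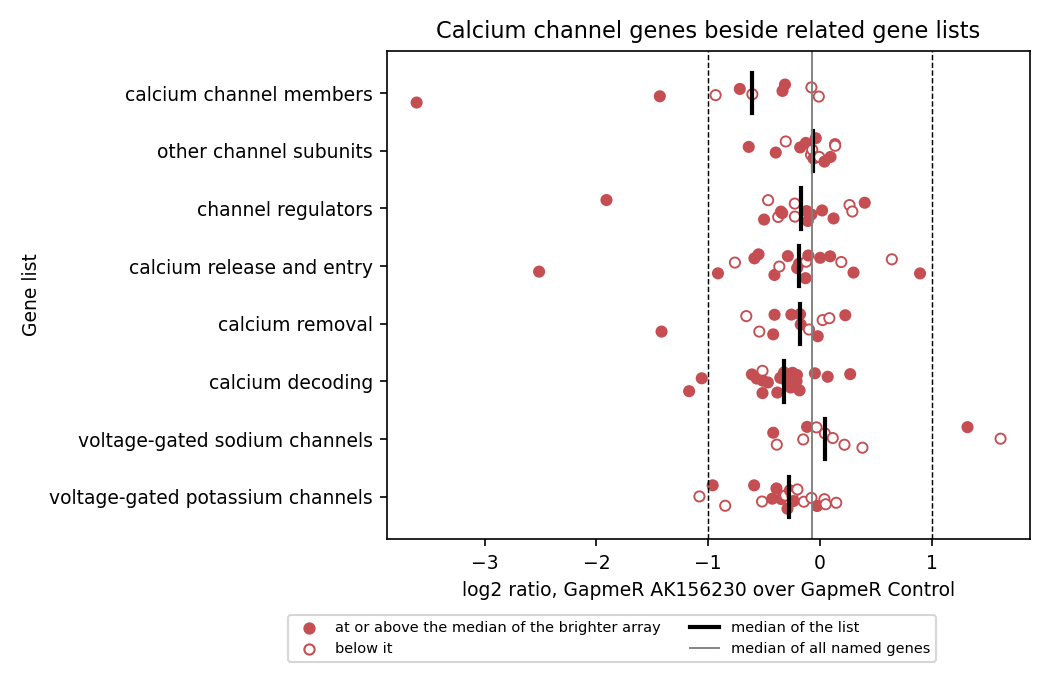
log2 ratio between the arrays, negative where GapmeR AK156230 was lower, for the measured genes of 8 lists, filled where the gene was bright, with black bars at list medians, a grey line at the median of all named genes and dashed lines at 2-fold. The calcium channel members have a median of -0.60, Cacna1c lies at -3.61 on the deposited signals, and the other subunits lie between -0.64 and 0.14.

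Markers of the cells were read beside these values. Fibroblast markers were bright on both arrays, and 6 of 14 were lower by 2-fold or more with none higher, among them Pdgfra (1038.96 and 283.31), Col6a1 (1392.21 and 391.80), Col5a1 (2867.35 and 831.50) and Col3a1 (4711.84 and 1599.46). Col1a1, Thy1 and Col1a2 were lower within 2-fold, with log2 ratios of -0.99, -0.91 and -0.67. The remaining markers within 2-fold stayed nearer to their level with GapmeR Control. Their log2 ratios were -0.34 (Fn1), -0.20 (Postn), -0.087 (Vim), -0.022 (S100a4) and 0.060 (Dcn). Of the 14 markers 13 lay below 0. Each marker count is set beside 3.85% of all named genes lower by 2-fold and 1.59% higher. Averaged over its probe sets Col3a1 had a log2 ratio of -2.34, against -1.56 at the brightest. Summed over the list, signals came to 46832 on the GapmeR Control array and 31525 on the GapmeR AK156230 array. Smooth muscle markers, of a cell type in which Cacna1c is a main channel, had summed signals of 14218 and 13768, and none of 8 was past 2-fold. Acta2 (7269.94 and 6836.81) and Tagln (5330.32 and 5442.57) made up most of these sums, while the dimmer Mylk, Myh11 and Synpo2 had log2 ratios of -0.74, -0.50 and -0.42. Of 20 skeletal and cardiac muscle markers 4 were higher by 2-fold, and 9 lay below 0. Summed over the 20, signals came to 1489 and 1978. Acta1 (416.88 and 770.32), within 2-fold, carried most of that rise. Myod1, Myh3 and Myh2 were lower within 2-fold, with log2 ratios of -0.76, -0.59 and -0.55. Higher by 2-fold were Tnnt2 (59.74 and 250.21), Tnnc1 (59.32 and 123.28), Myh6 (4.67 and 10.97) and Myf5 (5.33 and 11.02). Myh6 and Myf5, named after their values were seen, lay under the 25th percentile of both arrays. The count was 2 among bright genes and 1 with the offset, and the log2 ratio of Tnnt2 was 1.22 averaged over its probe sets, against 2.07 at the brightest. Of 12 neuronal markers 2 were lower, Tubb3 (152.14 and 70.28) and the dim Nefm (35.57 and 17.55, named after its values were seen), with sums of 956.3 and 716.9. That count was 1 after each of the 3 scalings (same median, quantile and loess) and 0 with the offset. No marker was at 0, since the lowest signal of the table is 1. The part of these cell types in the channel signals was not tested. AK156230 itself was the annotation of 0 probe sets, and its knockdown was not read here.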

How the data were processed

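Each condition, GapmeR Control and GapmeR AK156230, was read on 1 Affymetrix array. The intensity values deposited by the authors are linear MAS5 signals, 1 per probe set, that they had scaled array by array. Neither a MAS5 version nor a target for this scaling is given in the sources used here, and detection calls did not come with the values. The methods name a porcine array, while the labels give mouse RNA and the mouse annotation of the platform was used. Of 45037 probe sets 34945 had 1 gene symbol, 932 had several and 9160 were not listed; symbols were updated through Entrez IDs, and positions, lengths and promoters are from RefSeq (GRCm38.p6). Where a probe set lies in its transcript was not analysed here.

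The log2 of each GapmeR AK156230 signal minus that of GapmeR Control was computed without offset. The probe set brightest in mean log2 signal stood for its gene, and 2-fold, the threshold of the study, was used for counts. The test named in the methods (SAM) needs replicate arrays, so no test was run; the number of arrays limits the precision. All 10 members were named, with up to 4 bright genes past 2-fold from each other list and the 3 genes nearest to the most changed member. Members and lists were chosen with earlier results of these data known. Alternatives were other scalings (same median, quantile, loess), an offset, brightness filters, fold thresholds of 1.5 and 3, averaging a gene's probe sets and leaving out _x_at and _s_at probe sets; raising dim signals to the 25th percentile was added after seeing the data. The counting was tested on simulated data. Analyses used Python 3.11.15, numpy 2.4.6, pandas 2.3.3, statsmodels 0.14.6 and matplotlib 3.10.9.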

Additional observations from a re-analysis of the deposited data

How the results depend on the processing

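Each array stood for 1 condition, so no array could be left out. No paired analysis was possible because the result comes from no test and each group has 1 sample. The count of members lower by 2-fold was 2 of 9, and it was 1 when the probe sets of a gene were averaged (Cacna2d1 at -0.59). With the brighter array at or above its 75th percentile it was 1 of the 4 members left (Cacna1c left out). The count was 1 at a threshold of 3-fold and 5 at 1.5-fold. In the same order 2.94%, 5.70%, 1.45% and 9.69% of the named genes under each setting were lower, against 3.85% in the main setting. No alternative gave a member higher by 2-fold. The median log2 ratio of members, -0.60, was -0.32 with averaged probe sets. That of the member probe sets, -0.19, was -0.52, -0.62 and -0.52 with the brighter array at or above its 25th, 50th and 75th percentile, which left 15, 10 and 5 probe sets. Under the alternatives that gave it a value, Cacna1c ranged from -3.61 to -2.14. Cacna1d and Cacna1s changed sign under the 3 scalings, near 0. The other 7 measured members stayed below 0. Of 206 log2 ratios of single genes under the alternatives, 18 moved by more than the spread between probe sets of 0.276 (17 to smaller and 1 to larger changes), and 0 of those past 2-fold changed sign. Of 264 counts in the other lists 46 moved to or from 0 or by over 1.5 times, 35 of them to smaller counts. These include the fold thresholds of 1.5 and 3, which change counts by themselves. Dim signals and 1 array per condition limit all ratios.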
